A study of Mus musculus with 4 samples.

Results

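The genes described here are the mouse protein-coding genes whose symbols begin with Eif or Eef and a digit, the genes of translation initiation factors (eIF) and elongation factors (eEF) and of the kinases, inhibitors and methyltransferases named after them. In the RefSeq annotation of GRCm38.p6 (mm10) this gave 71 of 21887 protein-coding genes. A gene was counted as having a peak when the summit, the position of most tags, lay inside the gene or within 1 kb of either end.

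The peaks come from anti-HA ChIP-seq of embryoid bodies at day 6 in the design text, made by the SFEBq method from an Rx:GFP knock-in line of mouse embryonic stem cells. All cells carried the Wdr5 knockout together with human WDR5 under doxycycline control and with an HA tag (HA-hWDR5), and doxycycline was added at T12h in one group and at T48h in the other. In both groups the medium held 5% KSR, Matrigel (2%) was added at day 1, and chromatin was fixed with disuccinimidyl glutarate (2 µM, 30 min) and with paraformaldehyde (1%, 10 min). The labels give no event from which these hours are counted, no number of clones and no wild-type group. There was 1 ChIP library and 1 input library per time, so the values below describe 2 libraries, no test between the times was possible, and intervals cover counting error only. After duplicate removal MACS kept 55539917 ChIP tags at T12h and 67116740 at T48h, and called 1197 and 660 peaks. Expression was not measured here, so the label of the tissue could not be checked against marker genes.

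In initiation, eIF4E holds the mRNA cap, the scaffold eIF4G joins it to the RNA helicase eIF4A, and eIF3 links this assembly to the small ribosomal subunit that carries the initiator tRNA brought by eIF2. In elongation, eEF1A delivers aminoacyl-tRNA, the eEF1B complex recharges it with GTP, and eEF2 moves the ribosome along. WDR5 is a scaffold subunit of the MLL/SET1 histone H3K4 methyltransferases, it binds MYC, and it is known to occupy a set of genes for the protein synthesis machinery in several cell types.

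HA-hWDR5 peaks were found at 10 of the 71 genes at T12h (14.1%, against 4.25% of all protein-coding genes) and at 5 at T48h (7.04%, against 1.69%). The 5 genes of T48h were all among the 10 of T12h: Eef2, Eef1g, Eif3d, Eif4g1 and Eif4g3. Over all protein-coding genes, 930 had a peak at T12h, 369 at T48h and 236 at both times. Of all peaks, 225 of 1197 at T12h and 227 of 660 at T48h overlapped one of the other time. The 5 Eif and Eef genes found at both times had strong peaks, with folds of 21.05 to 32.47 at T12h and 11.7 to 23.64 at T48h. The other 5, Eif4a2, Eif5a2, Eif6, Eif4ebp1 and Eef1akmt1, had weak peaks at T12h, with folds of 4.25 to 6.92, and none was called at T48h. No gene lay between these ranges. The fold is the enrichment over local background that the authors deposited for each peak, as MACS gave it.

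RefSeq lists a transcription start, with the bases around it, for 6 of the 10 genes with a peak and for 55 of the 71. The sequences below are the 250 bases before that start in GRCm38.p6, written 5′ to 3′ on the gene's own strand. They are shown because the peaks lie across or near these starts and because the genes with strong peaks differ in the words their promoters hold. Capitals mark the E-box CACGTG, which MYC and related factors bind, and the ETS-type word CCGGAAG on either strand (CTTCCGG when read on the other).
Eef2, chr10:81176381-81176630, plus strand: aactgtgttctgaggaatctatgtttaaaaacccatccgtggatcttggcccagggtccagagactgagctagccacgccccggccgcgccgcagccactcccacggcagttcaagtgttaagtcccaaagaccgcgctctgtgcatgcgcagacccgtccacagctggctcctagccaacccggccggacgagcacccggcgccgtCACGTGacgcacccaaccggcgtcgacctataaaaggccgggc
Eif4g1, chr16:20672477-20672726, plus strand: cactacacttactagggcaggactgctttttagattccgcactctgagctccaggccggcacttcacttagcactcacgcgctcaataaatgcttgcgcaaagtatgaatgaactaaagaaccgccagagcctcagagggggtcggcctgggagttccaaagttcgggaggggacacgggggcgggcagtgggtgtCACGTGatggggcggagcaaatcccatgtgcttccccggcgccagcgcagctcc
Eif3d, chr15:77970825-77971074, minus strand: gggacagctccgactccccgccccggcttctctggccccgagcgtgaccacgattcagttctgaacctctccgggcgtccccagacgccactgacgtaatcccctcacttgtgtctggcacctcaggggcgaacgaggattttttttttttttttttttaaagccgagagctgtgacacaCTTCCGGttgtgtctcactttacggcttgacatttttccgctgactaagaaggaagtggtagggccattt
Eif4g3, chr4:137993206-137993455, plus strand: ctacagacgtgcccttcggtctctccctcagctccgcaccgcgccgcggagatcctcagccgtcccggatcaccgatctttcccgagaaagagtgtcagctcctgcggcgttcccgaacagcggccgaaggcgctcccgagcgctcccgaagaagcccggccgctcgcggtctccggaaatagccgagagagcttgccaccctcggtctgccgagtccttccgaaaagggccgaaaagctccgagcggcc
Eif5a2, chr3:28781027-28781276, plus strand: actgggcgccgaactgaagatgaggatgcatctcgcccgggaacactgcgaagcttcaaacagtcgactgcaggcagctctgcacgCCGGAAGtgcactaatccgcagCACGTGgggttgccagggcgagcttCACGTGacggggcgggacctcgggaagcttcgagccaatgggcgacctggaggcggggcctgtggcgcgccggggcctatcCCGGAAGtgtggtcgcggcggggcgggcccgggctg
Eif4a2, chr16:23107218-23107467, plus strand: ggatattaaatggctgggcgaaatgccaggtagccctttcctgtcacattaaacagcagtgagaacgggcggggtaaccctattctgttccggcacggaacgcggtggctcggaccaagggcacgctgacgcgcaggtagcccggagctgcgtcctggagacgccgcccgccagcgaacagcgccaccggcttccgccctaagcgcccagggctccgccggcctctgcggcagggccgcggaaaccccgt

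CACGTG occurred before the start in Eef2, Eif4g1 and Eif5a2, and CCGGAAG in Eif3d and Eif5a2. Neither word was found in the windows of Eif4g3 and Eif4a2. Counting the start as 0, the Eef2 E-box spans -43 to -38 and is followed by a TATAAA word at -15 to -10. Eif4g1 holds CACGTG at -54 to -49 and again after the start, at 15 to 20, with the variant CATGTG at -30 to -25. All of these words lie inside the peak interval at both times. The CCGGAAG match of Eif3d lies at -70 to -64, also inside both peaks. Eif5a2 holds E-boxes at -142 to -137 and at -117 to -112, and its T12h summit at -125 falls between them. A match is a description of letters and not of a bound site.

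**Figure D1:**
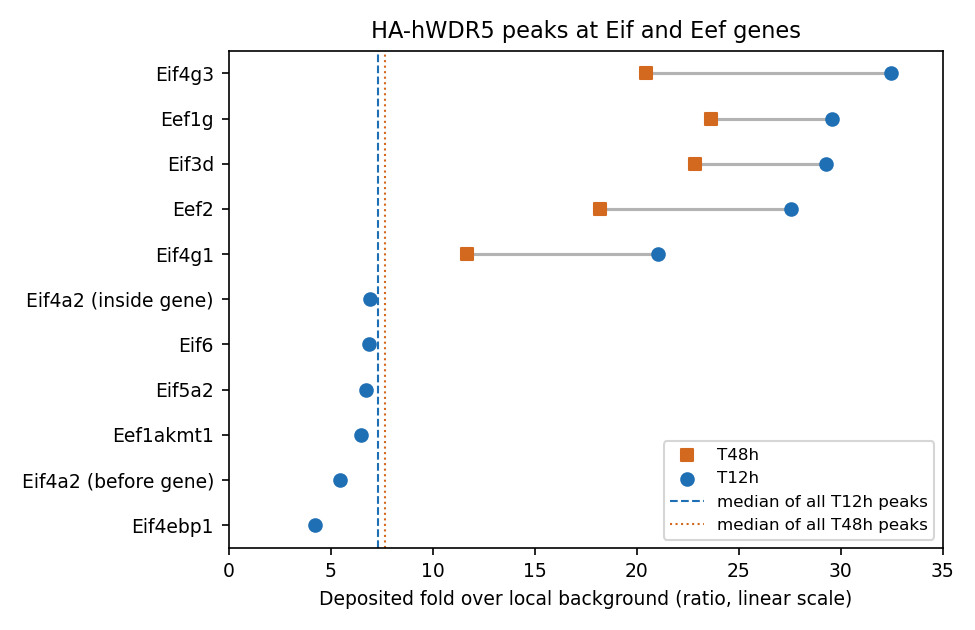
Deposited fold over local background (horizontal axis, a linear ratio) of each peak at an Eif or Eef gene, at T12h (circles) and T48h (squares), with lines joining the peaks of 1 gene and vertical lines at the median fold of all peaks of each list. The 5 genes with peaks at both times lie at 11.7 or above, and the 6 peaks found at T12h alone lie at 6.92 or below, under the T12h median of 7.31.

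Eif4g1 and Eif4g3 encode scaffolds of the cap-binding complex, and they were the members of the eIF4G family with a peak, while Eif4g2, which encodes a related protein that does not bind eIF4E, had none. At Eif4g3 (chromosome 4, 137991779 to 138207086) the T12h peak had a fold of 32.47 with 233 tags over 590 bp, the highest fold of the 71 genes at that time. Its T48h peak had a fold of 20.46 with 182 tags over 679 bp. The summits lay 1874 and 1748 bp inside the gene as the annotation spans it, but 197 and 71 bp after a listed internal start of the gene. A count limited to gene ends therefore leaves this gene out, although the peak sits at a start like those of the other strong members.

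At Eif4g1 (chromosome 16, 20672720 to 20692883) the T12h peak had a fold of 21.05 with 116 tags over 569 bp. The T48h peak had a fold of 11.7 with 68 tags over 532 bp, and it was the weakest of the 5 at each time. Its summits lay 244 and 224 bp after the listed start. Eif4a2, which encodes an eIF4A helicase, lies on the same chromosome (23107468 to 23114132) and had a pair of T12h peaks around its start. The first had its summit 363 bp before the start, with a fold of 5.46 and 79 tags over 730 bp. The second had its summit 325 bp after the start, with a fold of 6.92 and 33 tags over 368 bp. No peak was called at T48h for Eif4a2, nor at either time for its paralogs Eif4a1, Eif4a3 and Eif4a3l1. The cap-binding genes Eif4e, Eif4e2, Eif4e3 and Eif4e1b and the helicase cofactor genes Eif4b and Eif4h had none either.

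Eif3d (chromosome 15, 77958998 to 77970824), which encodes a cap-binding subunit of eIF3, was the 1 gene of 14 in the eIF3 family with a peak. The T12h peak had a fold of 29.26 and held 384 tags over 1103 bp, the most tags of any peak in the group. At T48h the fold was 22.88 with 299 tags over 1247 bp, and the peak was 9th of 660 in the order of deposited scores. The score, a log-scaled MACS p-value (-10 log10 p), was 2391.9 at T12h and 1534.91 at T48h. This T48h peak had a deposited false discovery rate of 11.11%, against 1.75% for Eif4g3 at T48h, whose score was lower (931.6). The median deposited rate was 9.625% over all T48h peaks and 3% over all T12h peaks. MACS derives that rate from calls with ChIP and control exchanged. A second T12h peak lay 2174 bp beyond the other end of Eif3d, at the neighbouring gene Foxred2, with a fold of 5.1 and 24 tags, and was not counted.

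Eef2 (chromosome 10, 81176631 to 81182509) encodes the translocase of elongation. Its peak had a fold of 27.58 with 344 tags over 912 bp at T12h and 18.2 with 296 tags over 936 bp at T48h. The summits, 201 and 189 bp after the start, were 12 bp apart, the smallest gap of the 5 genes. Eef2k, the kinase that inhibits eEF2, had no peak at either time, nor had Eef2kmt, a methyltransferase of eEF2.

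Eef1g (chromosome 19, 8967041 to 8978180) encodes the gamma subunit of the eEF1B exchange complex. Its peak had a fold of 29.58 with 365 tags over 1086 bp at T12h and 23.64 with 257 tags over 1001 bp at T48h, the highest fold of the group at T48h. The summits lay inside the gene, 291 and 326 bp from its lower-numbered end. The partner subunit genes Eef1b2 and Eef1d, the genes of eEF1A itself, Eef1a1 and Eef1a2, and Eef1e1 had no peak at either time.

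The other genes with a T12h peak had folds under the T12h median of 7.31, and their peaks ranked 514th (Eif5a2), 648th (Eif6), 679th (Eef1akmt1) and 977th (Eif4ebp1) of 1197 by score. Eif5a2 encodes the paralog of eIF5A, a factor that carries the amino acid hypusine and helps the ribosome through difficult peptide bonds. Its peak (fold 6.75, 34 tags over 315 bp) had its summit 125 bp before the listed start and 120 bp inside the gene span. It also lay 30 bp from the lncRNA gene 1700112D23Rik, and was the only one of these 11 T12h peaks with a second gene within 1 kb. The Eif6 peak (6.87, 26 tags over 277 bp) lay 73 bp beyond the higher-numbered end of the gene, whose product keeps the large ribosomal subunit from joining too early. The Eif4ebp1 peak (4.25, 45 tags over 530 bp) lay 426 bp inside the gene of 4E-BP1, the inhibitor of eIF4E that mTORC1 phosphorylates. It had the lowest score of the group (54.82, against 50.01 for the lowest of all T12h peaks). It lies on chromosome 8, which held 130 of the 1197 T12h peaks with a median fold of 5.17, but no other T12h peak lay within 500 kb of it. The Eef1akmt1 peak (6.49, 30 tags over 287 bp) lay deep inside the gene, 10130 bp from its nearer end. Eif5a, Eif4ebp2, Eif4ebp3 and Eif4enif1 had no peak at either time.

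**Figure D2:**
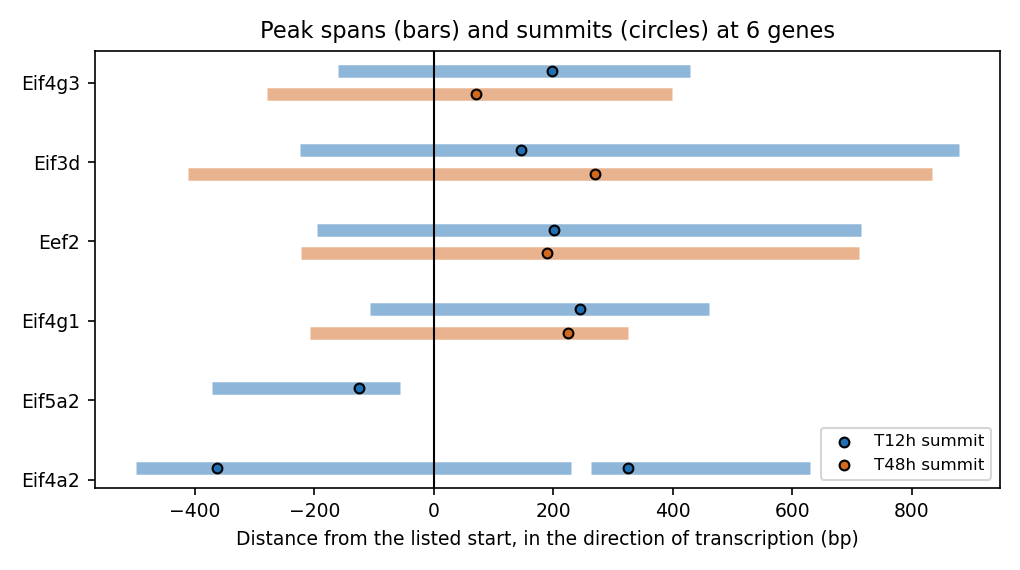
Peak intervals (bars) and summits (circles) at the 6 genes with a peak and a listed start, as distance in bp from that start in the direction of transcription, at T12h (blue) and T48h (orange). All 8 bars of the 4 genes found at both times cross the start and have their summit after it, between 71 and 269 bp.

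Summits of the strong peaks fell after the start of transcription. At the 4 strong genes with a listed start (Eif4g3, Eif3d, Eef2 and Eif4g1) they lay 145 to 244 bp after it at T12h and 71 to 269 bp after it at T48h. Each of these peaks also covered 107 to 412 bases before the start. Of the 3 weak T12h peaks that could be placed in this way, 1 lay after the start (Eif4a2) and 2 before it (Eif4a2 and Eif5a2). Across all genes, 510 T12h peaks lay within 1 kb of a listed start, with a median position of 75.5 bp after it, and 62.2% lay after it. Those that overlapped a T48h peak had a median of 153 bp and the others 42 bp. Peaks nearest a start of a cytosolic ribosomal protein gene, 37 at T12h, had a median of 200 bp, and 36 of them lay after the start. At T12h the strong Eif and Eef peaks lay inside the range of these ribosomal protein peaks, -289 to 384 bp. That range is wide and also holds the weak peaks at -125 bp (Eif5a2) and 325 bp (Eif4a2). Lying in it therefore does not set the strong peaks apart. No test of a difference was run on so few peaks.

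**Figure D3:**
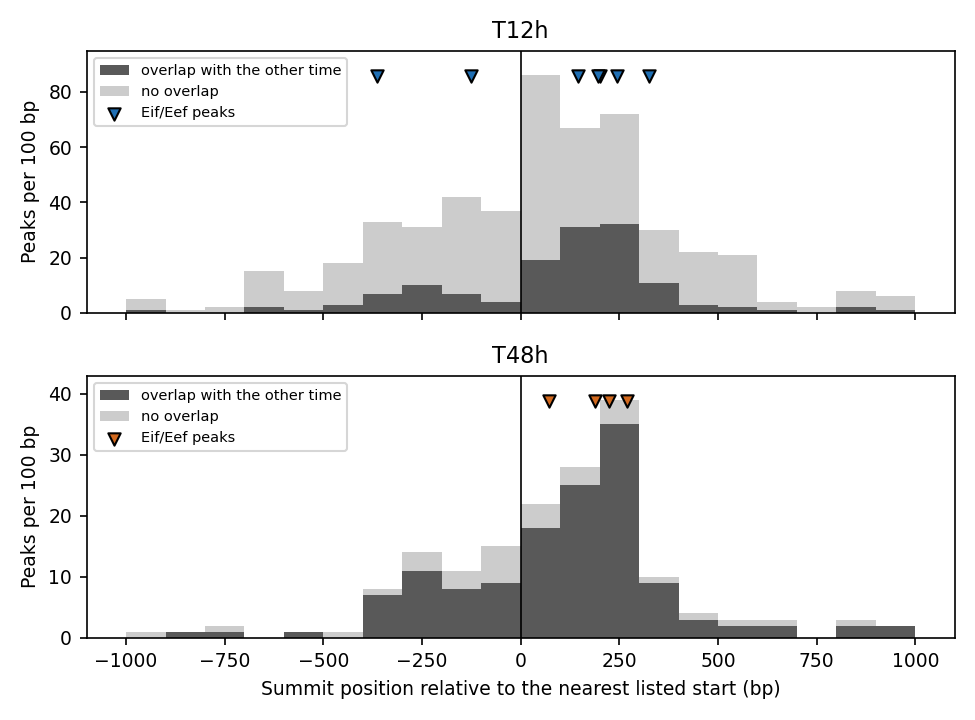
Number of peaks (vertical axis, per 100 bp) by position of the summit relative to the nearest listed start (horizontal axis, bp), for all genes at T12h (top) and T48h (bottom), with peaks that overlap a peak of the other time in dark grey and the others in light grey, and triangles for peaks at Eif and Eef genes. The 4 T48h triangles lie between 71 and 269 bp, and 2 of the 7 T12h triangles lie before the start.

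The peaks of the strong members were set side by side in place and in height. The T12h and T48h peaks of a gene overlapped over 432 to 1059 bp, which was 75.9% to 99.7% of the T12h peak and 81.2% to 100% of the T48h peak, and their summits were 12 to 126 bp apart. Pairs were defined by overlap, and no such widths or gaps over all pairs are set beside these. In 5 of 5 genes the T12h fold exceeded the T48h fold. The ratio of the T12h to the T48h fold ran from 1.25 at Eef1g and 1.28 at Eif3d to 1.52 at Eef2, 1.59 at Eif4g3 and 1.80 at Eif4g1. Over all 228 overlapping pairs of peaks the T12h fold was the higher in 196, with a median ratio of 1.47, and the middle of the distribution ran from 1.24 to 1.85 between quartiles. The ratios at the Eif and Eef genes lay within these quartiles.

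Tag density gave the same order of the times. Per 1000000 filtered tags and per kb of peak, Eef2 had 6.79 tags at T12h (exact Poisson 95% interval 6.09 to 7.55) and 4.71 at T48h (4.19 to 5.28). Eif4g1 had 3.67 (3.03 to 4.40) and 1.90 (1.48 to 2.41). For Eif4g3 the densities were 7.11 (6.23 to 8.08) and 3.99 (3.43 to 4.62). The intervals of the 2 times did not overlap at these genes, nor at Eif3d (6.27 and 3.57) or Eef1g (6.05 and 3.83). The density ratio had a median of 1.75 over the 5 genes and 1.49 over all overlapping pairs, so most shared peaks of any gene were also denser at T12h. The regions were called in each library on its own, and the intervals leave out variation between cultures.

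**Figure D4:**
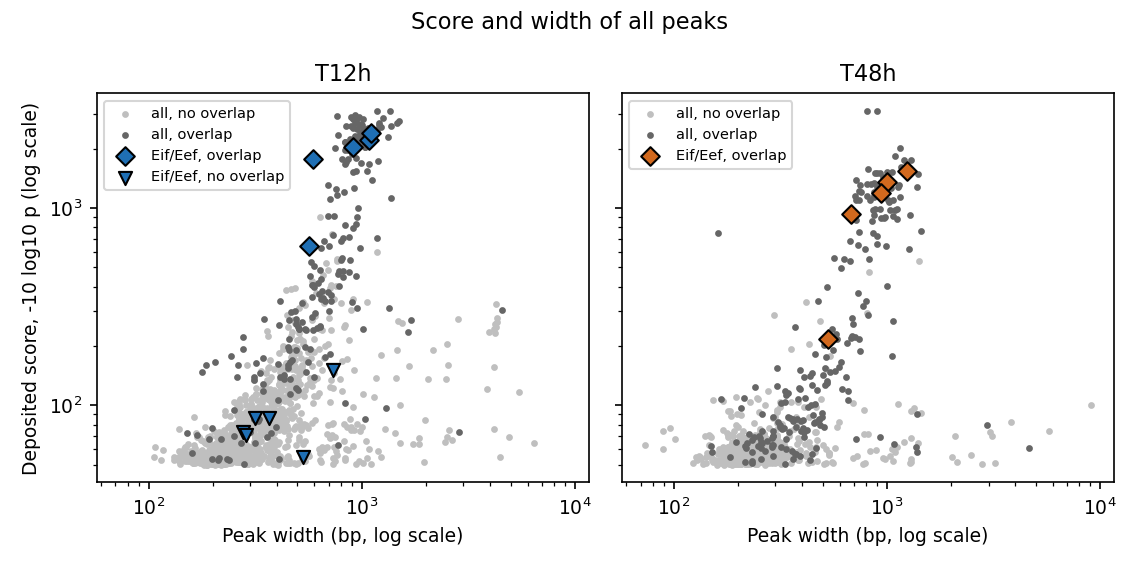
Deposited score (vertical axis, log scale) against peak width in bp (horizontal axis, log scale) for all peaks of T12h (left) and T48h (right), split by overlap with a peak of the other time, with diamonds and triangles for peaks at Eif and Eef genes. The 5 diamonds at T12h score 639.66 or more, and the 6 triangles score 150.87 or less.

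T12h peaks of higher score more often had a T48h counterpart, at any gene. Eif3d, Eef1g, Eef2, Eif4g3 and Eif4g1 were 35th, 45th, 53rd, 64th and 98th of 1197 by score at T12h. Of the 98 T12h peaks with a score at or above that of Eif4g1, 96 (98.0%, exact binomial 95% interval 92.8 to 99.8) overlapped a T48h peak. The 6 weak peaks scored 54.82 to 150.87, and of the 680 T12h peaks in that range 41 (6.03%, 4.36 to 8.09) overlapped one. Between these ranges 81 of 199 did (40.7%), and below them 7 of 220 (3.18%). A missing T48h call at Eif4a2, Eif5a2, Eif6, Eif4ebp1 and Eef1akmt1 is thus what most T12h peaks of such scores showed, and it does not show that the protein was absent there at T48h. At T48h the 5 peaks ranked between 9th (Eif3d) and 105th (Eif4g1) of 660.

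Of the 71 genes, 14.1% had a peak at T12h (exact binomial 95% interval 6.97 to 24.4), against 4.25% of all protein-coding genes. At T48h the share was 7.04% (2.33 to 15.7), against 1.69%. The 5 genes with a peak at both times were also 7.04%, against 1.08%. With peaks within 1 kb of a gene end alone, the counts were 8 and 4 genes, or 11.3% and 5.63%, against 2.93% and 1.06%. The same 4 genes had such a peak at both times, against 0.859% of all. Among genes with a listed start, 6 of 55 (10.9%, 4.11 to 22.2) had a T12h peak within 1 kb of it, against 3.17%, and 4 of 55 (7.27%, 2.02 to 17.6) had a T48h peak, against 1.11%. These 4 had one at both times, against 0.892%. These shares were above the background, but the group was chosen with earlier results known and no test was run. The median gene length was 15.3 kb for the group and 17.2 kb for all protein-coding genes.

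By family, with 4.25% of all protein-coding genes as the background, a T12h peak was found at 3 of 13 eIF4 genes, 1 of 14 eIF3 genes, 1 of 6 eEF1 genes, 2 of 3 genes of eIF5A and eIF6, 1 of 4 genes of eIF4E-binding proteins, 1 of 2 genes of eEF2 and its kinase, and 1 of 7 genes of elongation factor methyltransferases. None was found at the 7 genes grouped under eIF1, eIF1A, eIF5 and eIF5B, with Eif1ad counted among them. The factors named select the start codon and join the subunits. None was found either at the 11 genes of eIF2, its exchange factor eIF2B, eIF2A and eIF2D, or at the 4 genes of the eIF2 kinases, which lower initiation under stress. With so few genes these shares are imprecise, and a count of 0 allows shares of up to 41.0% of 7 genes and 28.5% of 11 by the exact binomial interval.

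No peak was found at either time for 61 of the 71 genes, against 20824 of all 21887 protein-coding genes. None of these 61 had one within 5 kb. Going from 1 kb to 5 kb moved the share of all protein-coding genes with a peak little, from 4.25% to 5.08% at T12h. At T48h that share moved from 1.69% to 2.12%. The peak nearest to any of the 61 genes was 7.33 kb from Eif2ak1, the gene of a heme-regulated eIF2 kinase, at T12h. At T48h it was 15.5 kb from Eif3g, an eIF3 subunit gene. The median distance from these genes to a peak was 611 kb at T12h and 1274 kb at T48h, with no such distance over all genes to set beside it. A further 15 loci with such symbols, 14 pseudogenes and 1 lncRNA gene, had no peak at either time. No share over all pseudogenes or lncRNA genes is given, so nothing is read from this count.

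**Figure D5:**
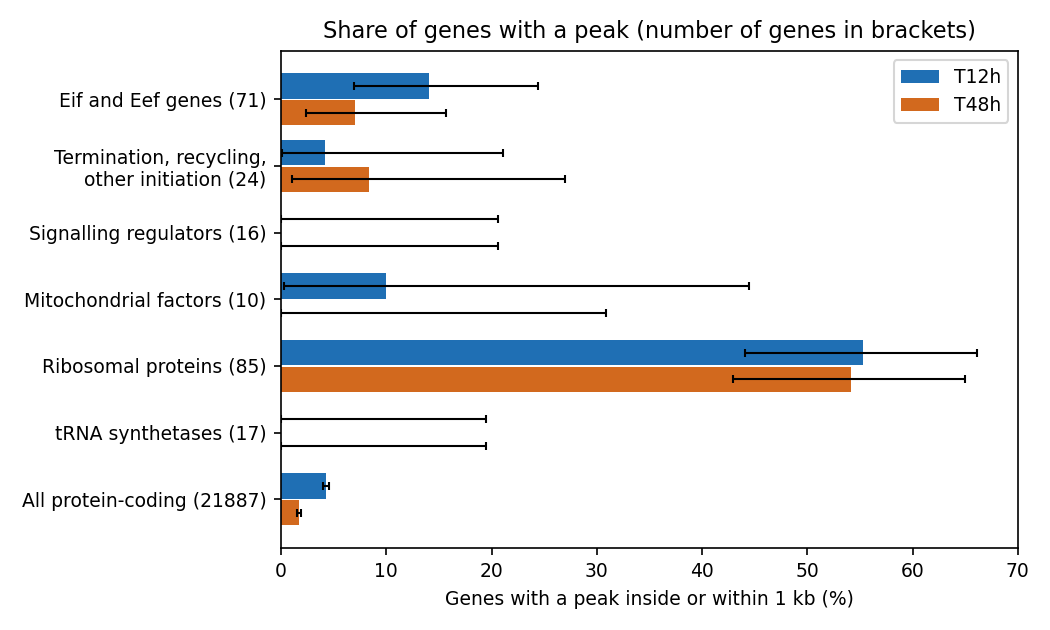
Percent of genes with a peak inside or within 1 kb (horizontal axis) for the Eif and Eef genes, 5 other lists of translation genes and all protein-coding genes, at T12h (blue) and T48h (orange), with exact binomial 95% intervals as bars. The Eif and Eef genes (14.1% and 7.04%) lie between all protein-coding genes and the ribosomal protein genes (55.3% and 54.1%).

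Among other genes of the translation pathway, cytosolic ribosomal protein genes had peaks most often, 47 of 85 at T12h and 46 at T48h, with median folds of 31.4 and 19.7. The median fold of all Eif and Eef peaks was 6.92 at T12h and 20.46 at T48h. The strong peaks, set apart by their folds, ran from 21.05 to 32.47 at T12h, where Eif4g3 alone exceeded the ribosomal protein median. At T48h they ran from 11.7 to 23.64, on both sides of that median. Of 24 genes for termination, recycling and further initiation proteins, 1 had a T12h peak (4.17%, near the 4.25% of all protein-coding genes) and 2 a T48h peak (8.33%, against 1.69%). Rack1, which encodes a protein of the small ribosomal subunit, had one at both times (fold 30.69 with 425 tags and 14.22 with 258 tags). Pdcd4, an inhibitor of eIF4A, had one at T48h alone (5.02), 14699 bp from the nearer gene end. Guf1 was the 1 of 10 mitochondrial translation factor genes with a T12h peak (6.21). None of 16 signalling regulators of translation, Mtor and Rptor among them, and none of 17 aminoacyl-tRNA synthetase genes had a peak at either time, which in lists of this size is near the background.

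Introns of some translation factor genes carry small nucleolar RNAs (snoRNAs), which guide the modification of ribosomal RNA. The annotation places a snoRNA gene inside 9 of the 71 genes. Of these 9, 3 had a T12h peak, namely Eef2 (Snord37), Eif4g1 (Snord66) and Eif4a2 (Snord2 and Snora81 among others), and 2 had a T48h peak. Of the 62 genes without one, 7 and 3 had a peak. Among all 372 protein-coding genes with a snoRNA gene inside, 11.8% had a T12h peak and 7.80% a T48h peak, against 4.25% and 1.69% of all protein-coding genes. Eif4a1, Eef1b2, Eif5, Eif3a, Eif4g2 and Eif2ak3 hold a snoRNA gene and had no peak.

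The E-box was common in the whole group and not limited to the genes with a peak. In the window from 250 bases before to 50 after a listed start, CACGTG occurred in 15 of 55 Eif and Eef genes (27.3%), against 8.91% of 17492 protein-coding genes with such a window. It occurred in 3 of the 6 genes with a peak and in 12 of the 49 without one (24.5%), Eif4e, Eif4a1 and Eif5a among the latter. Eef1akmt4 and Eef1akmt4-ece2 begin at the same position and are both among these 12. They were counted separately here and in the other counts. Of all genes with a T12h peak within 1 kb of a listed start, 18.6% had CACGTG, and of those with a T48h peak 13.8%. The word CCGGAAG occurred in 17 of 55 (30.9%), against 12.9% of all, in 2 of the 6 genes with a peak and 15 of the 49 without one. Among all genes with a peak within 1 kb of a listed start it occurred in 23.8% at T12h and 29.2% at T48h. The GC box GGGCGG occurred in 41 of 55 (74.5%) against 49.2%, and in 4 of the 6. Its shares among all genes with such a peak were 70.8% at T12h and 70.3% at T48h. CCAAT (20 of 55, 36.4% against 42.3%), TATAAA (5 of 55, 9.09% against 14.8%) and CATGTG (6 of 55, 10.9% against 13.2%) had shares below the overall ones. AAGATGG, the YY1-type word, occurred in 8 of 55 (14.5% against 7.18%) and in none of the 6. Before the start alone it occurred in 3 of 55 (5.45% against 4.77%). The palindrome bound by NRF1 occurred in Eif3k alone (1.82% against 1.47%), and the palindrome bound by BANP in no member (0.755% of all genes). A start of the terminal oligopyrimidine type, taken as a C followed by at least 4 C or T within 5 bases of the listed start, was found in 15 of 55 (27.3%, against 21.5%) and, of the 6 genes with a peak, in Eif4g1. Starts farther than 5 bases from the listed one were not searched, so a gene not counted here may still have such a start. All words were searched on both strands, except the last, which was read on the gene's strand, and GGGCGG can overlap other words. The group's windows were richer in G and C before the start, with a median of 60.0% against 55.6% of all genes, and this was not taken into account in these shares.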

How the data were processed

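Per the file headers, the authors called peaks with MACS 1.4.2 on 1 ChIP library against 1 control library at each time, with a p cutoff of 1e-05, no duplicate tags and scaling of the larger library to the smaller. The submitters' processing notes name mm10 as the build, and as tools HOMER 4.9.1, SAMtools 1.5, deepTools and Bowtie2. The deposited tags are a whole-number count per peak, not normalised. Deposited scores are -10 log10 of the p-value (highest value 3100), the deposited fold is a ratio to the local background, and false discovery rates were deposited as a percent. Each group held 1 library, with no replicates.

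Summits (start plus summit offset minus 1) were assigned to RefSeq genes of GRCm38.p6 with pandas 2.3.3 and numpy 2.4.6 under Python 3.11.15; scipy 1.17.1 gave the intervals and matplotlib 3.10.9 the figures. Peaks overlapped when they shared at least 1 bp. Intervals are exact Poisson or exact binomial at 95%. Starts, strands and promoter bases came from the RefSeq promoter table, which matched 55 of the 71 genes by gene ID; for the others, among them Eef1g, Eif6, Eif4ebp1 and Eef1akmt1, distances are to gene ends. Peak sequences were not analysed here. Every member with a peak is named, and promoters are printed for members with a T12h summit within 1 kb of a listed start. Members and lists were chosen with earlier results of these data known, so no enrichment test was run. The assignment, overlap and word searches were tested on simulated data. Alternatives covered the distance, the peaks, the gene counted, the overlap, the tag total and the promoter window.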

Additional observations from a re-analysis of the deposited data

How the results depend on the processing

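The same 10 genes at T12h and 5 at T48h were counted at 500 bp, at 5 kb, with the nearest gene alone and with peak overlap in place of the summit. Gene ends alone left 8 and 4 (without Eif4g3 and Eef1akmt1), and keeping the 50% of peaks with the highest scores gave 7 and 5 (without Eif6, Eif4ebp1 and Eef1akmt1), which raised the median T12h fold of the members' peaks from 6.92 to 24.3. The 5 shared peaks stayed shared under the 3 other rules run. The share of all protein-coding genes moved to 5.08% at T12h and 2.12% at T48h at 5 kb, 2.62% and 1.07% in the upper 50% by score, 3.64% and 1.47% with the nearest gene alone, and 2.93% and 1.06% at gene ends alone. Over all tags read in place of filtered tags, the median density moved from 1.95 to 1.20 at T12h and from 3.83 to 2.07 at T48h, and the density ratios of the 5 genes became 1.64 to 2.19. Before the start alone, AAGATGG was found in 3 members in place of 8. Of the recomputed values, 59 stayed within 1.5 times of the reported value and, for shares, within its exact interval, 12 moved, and the number reversed was 0. No paired analysis was possible because there was a single library for each time. Low tag counts limit the weak peaks, which held 26 to 79 tags.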
